A study of Rattus norvegicus with 6 samples.

Results

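Genes for surface and secreted proteins of reactive glia were followed in primary rat oligodendrocyte progenitor cells (OPCs) exposed to fibrinogen. The set held 10 genes taken by name, Cd44, Pdpn, Lgals3, Emp1, Tm4sf1, Crip1, Serpina3n, Lcn2, C3 and Cd109. A gene counted as measured if the platform's table paired it with a probe set that had values, and among several probe sets the one with the highest mean level would be used. Of the 10 genes, 9 were measured, among 13949 genes in all, and each of the 9 had only 1 probe set, so that no choice between probe sets arose. No probe set was paired with Cd109 alone, and that gene was not analysed here. The genes were chosen by name with the fibrinogen against control changes of these arrays known, so their changes describe these 6 arrays and are not independent evidence of a direction.

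One group was OPCs from newborn rats stimulated with fibrinogen, the clotting protein that reaches nervous tissue when vessels leak, for 12 h (n = 3). The controls were unstimulated OPCs of the same 12 h set (n = 3). Both groups had been allowed to recover for 2 days in a growth medium with N2, B27, NT3 and PDGF, which keeps OPCs dividing. RNA was amplified and hybridised to Affymetrix arrays, 1 per sample. The sources used here give no dose of fibrinogen. The series asks, in its title, how fibrinogen acts on bone morphogenetic protein (BMP) signaling in OPCs and on myelin repair.

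Reactive glia are the changed state that astrocytes, above all, take on after injury or inflammation of the nervous system. They add matrix receptors and adhesion proteins to their surface, and they release protease inhibitors, complement proteins and iron-binding proteins. Much of this program is driven in astrocytes by cytokines that act through STAT3 and NF-kappaB.

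Values were log2 levels, so a difference of 1 is a 2-fold difference. Background was set at the 95th percentile of 956 olfactory and vomeronasal receptor genes, a log2 level of 5.51, above which 71.3% of all genes lay. In limma, with Benjamini-Hochberg adjustment across the 13949 genes, 252 genes rose and 180 fell at an adjusted p under 0.05, which is 3.10% of the genes tested. The median log2 change of all genes was -0.0033. The counts were smaller in most fits that left out 1 array, which have 5 samples in place of 6. Without control 1, 2 and 3, 119, 101 and 96 genes rose and 65, 55 and 55 fell. Without fibrinogen 1 and 3, 142 and 167 rose and 89 and 113 fell, and without fibrinogen 2, 263 rose and 173 fell. The array of fibrinogen 2 stood farthest from its group, with an SD of all genes about the group mean of 0.146, against 0.110 to 0.114 on the other fibrinogen arrays and 0.0862 to 0.0939 on control arrays.

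The 9 measured genes divided into 5 that rose about 2-fold and 4 that did not pass and lay near background. Cd44, Pdpn, Lgals3, Emp1 and Crip1 rose, 0 genes fell, and Tm4sf1, Serpina3n, Lcn2 and C3 did not pass. This is 5 of 9 measured genes that rose, where 1.81% of all genes did, and 0 of 9 that fell, where 1.29% of all genes did, and nothing is read from that contrast because the genes were proposed with it known. Without adjustment of p, 6 genes would have passed as higher and 0 as lower, namely the 5 that rose and Lcn2. The shares of all genes above are for adjusted p and cannot be set beside this count. No share of all genes is given for unadjusted p. Nothing is therefore read from this count, or from the unadjusted counts of the gene lists below. The 5 genes that rose were also those with a mean level above background, and the other 4 lay below it. The median log2 change of the 9 genes was 0.89. The groups did not overlap for 6 of the 9 genes, the 5 that rose and Lcn2, and 21.3% of all genes had groups that did not overlap in one direction or the other.

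**Figure D1:**
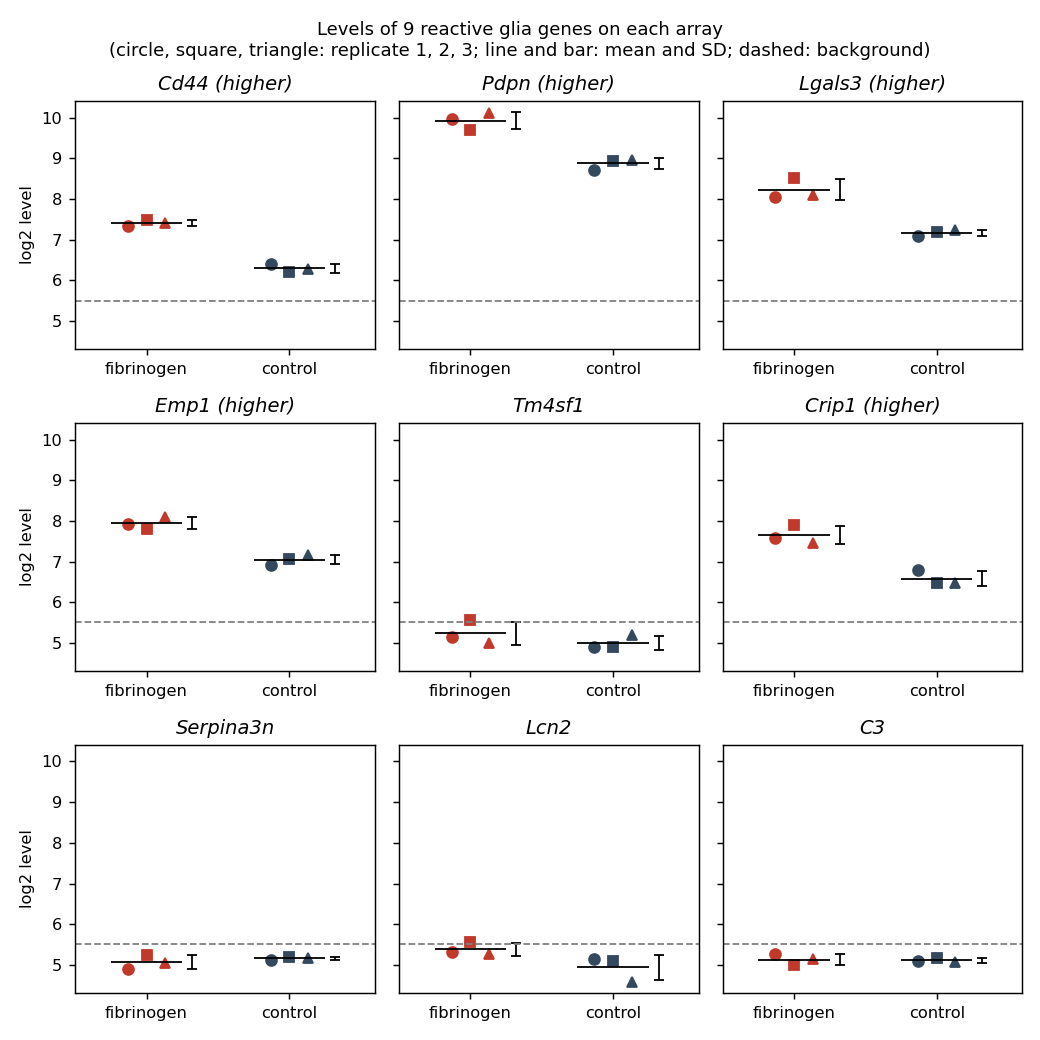
Log2 level of each measured gene on every array, with fibrinogen arrays left and control arrays right, 3 each; lines and bars are the mean and SD, and the dashed line is the background level of 5.51. Cd44, Pdpn, Lgals3, Emp1 and Crip1 are higher on all 3 fibrinogen arrays than on any control array, whereas Tm4sf1, Serpina3n and C3 overlap between groups below or around the background line.

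Cd44 encodes the main cell surface receptor for hyaluronan, the sugar polymer that fills the extracellular space of the brain. Its log2 level was 7.35, 7.48 and 7.41 on the fibrinogen arrays, against 6.41, 6.20 and 6.28 on the control arrays. The lowest fibrinogen value lay well above the highest control value, and the spread within each group was small. Cd44 rose 2.17-fold, by 1.12 ± 0.08 (SE) on the log2 scale (adjusted p = 0.000449, limma), and ranked 6 among all genes by size of rise.

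Pdpn encodes podoplanin, a mucin-like membrane glycoprotein that anchors to the cortical actin skeleton through ezrin and moesin and binds a lectin receptor of platelets. Log2 levels of Pdpn were 9.96, 9.70 and 10.12 on the fibrinogen arrays, and on the control arrays 8.72, 8.94 and 8.97. All fibrinogen values were higher, and the second fibrinogen array was the lowest of its group. Pdpn rose 2.07-fold, by 1.05 ± 0.12 (SE) on the log2 scale (adjusted p = 0.00287, limma).

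Lgals3 encodes galectin-3, a lectin that binds galactose-bearing sugar chains and leaves the cell without a signal peptide. The fibrinogen arrays gave log2 levels of Lgals3 of 8.06, 8.53 and 8.11, and the control arrays gave 7.09, 7.19 and 7.23. Here the second fibrinogen array was the highest of its group, and the groups did not overlap. Lgals3 rose 2.09-fold, by 1.06 ± 0.12 (SE) on the log2 scale (adjusted p = 0.00331, limma).

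Emp1 encodes a tetraspan membrane protein of the family of the myelin protein PMP22, and it is used as a marker of reactive astrocytes after ischemia. Emp1 stood at log2 levels of 7.93, 7.80 and 8.11 on the fibrinogen arrays and 6.93, 7.06 and 7.17 on the control arrays. The groups did not overlap, and the second fibrinogen array was again the lowest of its group. Emp1 rose 1.86-fold, by 0.89 ± 0.10 (SE) on the log2 scale (adjusted p = 0.00287, limma).

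Crip1 encodes a small cysteine-rich protein with a LIM domain. It is known as a protein of the cell interior, so the description as surface or secreted does not cover it. Its log2 level was 7.58, 7.91 and 7.47 on the fibrinogen arrays and 6.79, 6.48 and 6.47 on the control arrays. The groups did not overlap, and the second fibrinogen array was the highest, as for Cd44 and Lgals3. Crip1 rose 2.10-fold, by 1.07 ± 0.13 (SE) on the log2 scale (adjusted p = 0.00406, limma).

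**Figure D2:**
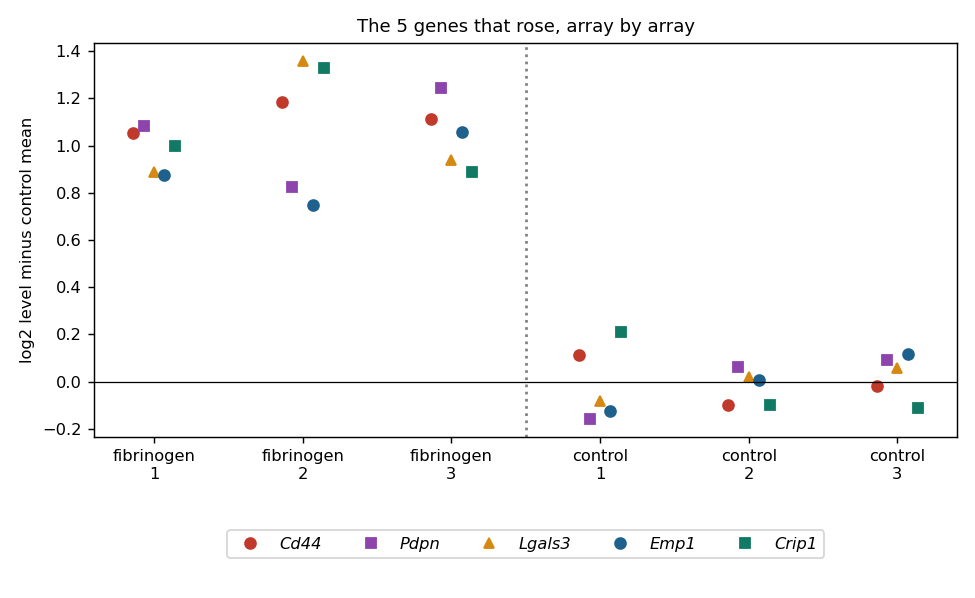
Log2 level minus the control mean for the 5 genes that rose, with fibrinogen arrays 1 to 3 left of the dotted line and control arrays 1 to 3 right of it; colours mark genes. On fibrinogen 2, Lgals3 and Crip1 stand 1.36 and 1.33 above their control means, whereas Pdpn and Emp1 stand 0.82 and 0.75 above theirs.

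The 5 genes rose by like amounts but were spread in different ways over the fibrinogen arrays. Relative to the control mean, Cd44 lay between 1.05 and 1.18 higher on the log2 scale on the 3 fibrinogen arrays, the narrowest range of the 5. Cd44, Lgals3 and Crip1 had their largest difference on fibrinogen 2 (1.18, 1.36 and 1.33), and Pdpn and Emp1 their smallest there (0.82 and 0.75). Without fibrinogen 2 the log2 changes were still called for all 5, and leaving out any 1 array gave ranges of 1.07 to 1.17 for Cd44, 0.95 to 1.16 for Pdpn, 0.92 to 1.15 for Lgals3, 0.81 to 0.97 for Emp1 and 0.95 to 1.18 for Crip1, with an adjusted p of at most 0.0274 in limma.

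The promoters of genes that rose, and of Serpina3n, which did not pass, are shown because they hold, or lack, the same short motifs. The windows are the 250 bases before a RefSeq transcription start in build GRCr8, written 5′ to 3′ along the gene, and capitals mark every match to a searched motif on either strand.
Emp1, chr4:169943980-169944229 (+ strand): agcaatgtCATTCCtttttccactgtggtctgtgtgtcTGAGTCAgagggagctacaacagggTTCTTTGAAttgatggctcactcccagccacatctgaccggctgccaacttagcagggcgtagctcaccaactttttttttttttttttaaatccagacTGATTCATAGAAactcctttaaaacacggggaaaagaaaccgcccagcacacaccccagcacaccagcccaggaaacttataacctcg
Crip1, chr6:138047551-138047800 (+ strand): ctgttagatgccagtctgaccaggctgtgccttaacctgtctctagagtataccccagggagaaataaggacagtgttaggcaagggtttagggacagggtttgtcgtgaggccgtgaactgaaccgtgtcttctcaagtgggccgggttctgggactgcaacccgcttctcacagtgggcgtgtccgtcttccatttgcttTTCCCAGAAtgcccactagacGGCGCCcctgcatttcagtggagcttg
Serpina3n, chr6:129088142-129088391 (+ strand): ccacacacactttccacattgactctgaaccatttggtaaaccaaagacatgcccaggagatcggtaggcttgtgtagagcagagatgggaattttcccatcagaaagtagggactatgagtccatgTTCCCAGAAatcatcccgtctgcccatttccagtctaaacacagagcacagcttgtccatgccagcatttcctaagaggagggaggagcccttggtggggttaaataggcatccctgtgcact
Cd44, chr3:109699425-109699674 (- strand): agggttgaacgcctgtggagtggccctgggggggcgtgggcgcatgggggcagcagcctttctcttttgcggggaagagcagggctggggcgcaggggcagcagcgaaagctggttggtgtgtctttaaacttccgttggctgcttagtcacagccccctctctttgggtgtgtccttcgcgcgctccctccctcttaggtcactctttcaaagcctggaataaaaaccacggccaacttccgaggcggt
The motifs searched on both strands were TGANTCA (bound by AP-1), TTCNNNGAA (STAT factors), an NF-kappaB motif (GGG, any 2 bases, TTT and CC), GGCGCC (the GC-rich element bound by BMP-activated Smads), GGAATG (TEAD factors) and TATAAA (the TATA box). The Emp1 window held TGANTCA at -212 to -206 and at -88 to -82 relative to the start, TTCNNNGAA at -187 to -179 and at -85 to -77, and GGAATG, on the opposite strand, at -242 to -237. The second TGANTCA and the second TTCNNNGAA of Emp1 overlap and were counted separately. The Crip1 window held TTCNNNGAA at -48 to -40, with the letters TTCCCAGAA, and GGCGCC at -27 to -22. Crip1 has a second RefSeq start, whose window (chr6:138053618-138053867, + strand) also held GGCGCC, at -11 to -6, but no TTCNNNGAA. Which start these cells use was not tested. Serpina3n held the same letters as the first Crip1 window, TTCCCAGAA, at -123 to -115. The change of Serpina3n did not pass, and its level lay below background.

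Of the 33465 windows of that length in the RefSeq table, 6.34% held TGANTCA, 7.67% TTCNNNGAA, 1.30% the NF-kappaB motif, 8.70% GGCGCC, 12.1% GGAATG and 12.9% TATAAA. The table had 9 windows for 8 genes of the set, with TGANTCA in 1 window, TTCNNNGAA in 3, GGCGCC in 2 and GGAATG in 2, the second of these in Lcn2. The windows of Cd44, Pdpn, Tm4sf1 and C3 held none of these letters. A match describes letters in a window and was not tested as a binding site.

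The 3 secreted acute-phase proteins of the set were near background in both groups. Lcn2 encodes lipocalin 2, which withholds iron from bacteria by binding their siderophores and is released by reactive astrocytes. On the log2 scale Lcn2 stood at 5.31, 5.56 and 5.28 on the fibrinogen arrays and 5.14, 5.10 and 4.59 on the control arrays. The groups did not overlap, but the third control array lay apart from the others. The log2 change of 0.44 ± 0.15 (SE; 95% confidence interval 0.10 to 0.78) did not pass (adjusted p = 0.185, limma), and without control 3 it was 0.26.

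Serpina3n encodes a secreted inhibitor of serine proteases that marks reactive astrocytes in rodents. Levels of 4.91, 5.25 and 5.05 were measured for it on the fibrinogen arrays (log2), and of 5.11, 5.20 and 5.17 on the control arrays. The groups overlapped, and the log2 change of -0.09 ± 0.09 (SE) had an interval of -0.30 to 0.12 (adjusted p = 0.722, limma).

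C3 encodes the central protein of the complement cascade and is a marker of the inflammatory type of reactive astrocyte. C3 had log2 levels of 5.26, 5.0 and 5.14 on the fibrinogen arrays and 5.09, 5.18 and 5.07 on the control arrays. The control values lay inside the range of the fibrinogen values, and the log2 change of 0.02 ± 0.08 (SE) had an interval of -0.17 to 0.21 (adjusted p = 0.949, limma). At a level below background these arrays do not show whether Serpina3n and C3 were transcribed at all, and a change in them may be understated.

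Tm4sf1 encodes a tetraspan surface protein of the L6 family. Its log2 level was 5.15, 5.56 and 5.01 on the fibrinogen arrays and 4.91, 4.91 and 5.20 on the control arrays. Only the second fibrinogen array stood above all controls, and it was the one array on which the level passed the background line. The log2 change was 0.23 ± 0.14 (SE; interval -0.09 to 0.56) and did not pass (adjusted p = 0.50, limma), and without fibrinogen 2 it was 0.07.

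**Figure D3:**
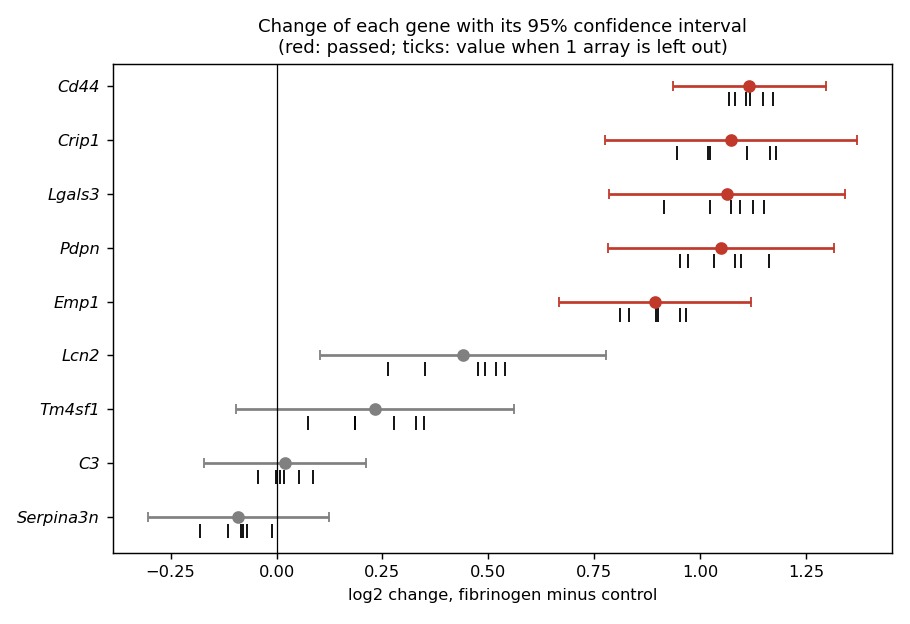
Log2 change, fibrinogen minus control, of each measured gene with its 95% confidence interval in limma; red marks genes that passed, and ticks are the values with 1 array left out. The 5 genes that rose lie between 0.89 and 1.12, and the next, Lcn2, at 0.44.

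Genes that define reactive astrocytes in rodents were compared by their published types. The lists were drawn up from general knowledge, with earlier results of these data known. Of 12 measured pan-reactive genes, 3 rose and 0 fell. Cd44 was one, and the others were Hspb1, a small heat shock protein, by 1.79 ± 0.11 (SE), and Gfap, the filament protein of astrocytes, by 1.24 ± 0.16. The list's median log2 change was 0.27, against -0.0033 over all genes. Where p was not adjusted, Timp1 (0.47), Osmr (0.32), Lcn2 and Vim would also have passed as higher, and 0 genes as lower. As said above, nothing is read from unadjusted counts. Vim, a filament protein shared by glia and progenitors, had a log2 level of 12.07, 12.18 and 12.14 on the fibrinogen arrays and 12.03, 11.85 and 11.85 on the control arrays, and its change of 0.22 did not pass (adjusted p = 0.209, limma).

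The A1 genes, those induced by inflammation, had 0 of 10 measured members higher or lower in limma (1 higher and 0 lower where p was not adjusted), with a median of 0.08. With array weights 1 of them was called. Fbln5, a protein of elastic fibers, and Gbp2, an interferon-induced GTPase, had the largest changes outside the set, 0.28 and 0.13. Of 12 A2 genes, those induced by ischemia, Emp1 rose, 0 fell and 11 did not pass, with a median of 0.12. S100a10, an annexin partner, and the cytokine gene Clcf1 had changes of 0.16 and 0.15 that did not pass. Only 4 of the 10 A1 genes and 7 of the 12 A2 genes lay above background.

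Among partners of Cd44 and podoplanin, ezrin stood out by size. Ezr, which ties both receptors to actin, had a log2 level of 7.54, 7.69 and 7.51 on the fibrinogen arrays and 6.77, 6.71 and 6.66 on the control arrays. It rose by 0.87 ± 0.08 (SE; adjusted p = 0.00125, limma), with no overlap between groups. Its relatives Rdx (radixin) and Msn (moesin) each had a change of -0.06 that did not pass. Of 14 measured genes of hyaluronan handling and Cd44 binding, 2 rose and 1 fell, with a median of 0.0083. Besides Ezr, these were Cemip2, a surface hyaluronidase, which rose by 0.41 ± 0.09, and Hmmr, a hyaluronan-binding protein of the mitotic spindle, which fell by 0.33 ± 0.07. Both calls were marginal: with 1 array left out, the adjusted p was 0.0398 to 0.187 for Cemip2, which passed only without fibrinogen 1, and 0.0529 to 0.176 for Hmmr (limma). After median centring Cemip2 did not pass, and Hmmr did not with the replicate number as a block. Of 10 podoplanin partners Ezr and Cd44 rose and 0 fell, with a median of -0.02.

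Relatives of the other genes that rose gave smaller changes. Of 12 galectins, their partners and ligands, 2 rose and 0 fell, with a median of 0.0033. Lgals1, galectin-1, rose by 0.38 ± 0.07 (SE), and Mgat5, the enzyme that builds the branched sugar chains galectin-3 binds, by 0.31 ± 0.06. Both calls were lost with the replicate number as a block and in every fit that left out 1 array except that without fibrinogen 2, with an adjusted p of up to 0.118 for Lgals1 and 0.151 for Mgat5 (limma), which left 0 genes of the list higher in those fits.

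Of 9 relatives of Crip1, 2 rose and 1 fell, with a median of -0.02. Pdlim1, a LIM protein of actin fibers, rose by 0.64 ± 0.08 and Crip2, the gene next to Crip1 in the RefSeq table, by 0.48 ± 0.09, whereas Fhl1, another LIM protein, fell by 0.37 ± 0.07 (SE). With 1 array left out, the adjusted p reached 0.131 for Crip2, which passed only without fibrinogen 2, and 0.127 for Fhl1, which passed only without fibrinogen 2 or 3, and Fhl1 also did not pass with the replicate number as a block (limma). Of 9 relatives of Emp1 and Tm4sf1, 0 passed in limma (2 higher and 0 lower where p was not adjusted), with a median of 0.11. Emp3 and Cldn11, a claudin of myelin, had changes of 0.42 and 0.38. Where a filter removed dim genes Emp3 passed, with array weights both passed, and without fibrinogen 2 Cldn11 passed (adjusted p = 0.0122, limma).

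Among relatives of the secreted genes, 1 passed. Of 19 genes for complement and thioester proteins, Clu, which encodes clusterin, an inhibitor of the terminal complement complex, rose by 0.58 ± 0.08 (SE; adjusted p = 0.00538, limma) and 0 fell (4 higher and 0 lower where p was not adjusted), with a median of 0.02. Only 7 of the 19 lay above background, and a change in the other 12 may be understated. Without dim genes, or with a variance trend or array weights, 2 of them rose. Of 12 serpins and of 9 lipocalins and their receptors, 0 passed in limma (3 higher and 0 lower serpins, and 0 higher and 1 lower lipocalin genes, where p was not adjusted), with medians of 0.14 and -0.05. The largest serpin changes were those of Serpinh1, a collagen chaperone, and Serpina1, at 0.31 and 0.24. Serpina1 lay below background, as did several other serpins and most of the lipocalin genes, and a change in these may be understated. Among lipocalin genes Lcn1, which lay below background, had a change of -0.26. Apom had one of 0.19, which was 0.03 to 0.40 with 1 array left out.

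The list of STAT3 and NF-kappaB genes held inducers, signaling proteins and feedback genes, so not all of it acts upstream of the acute-phase response. Of its 28 measured genes, 3 rose, 0 fell and 25 did not pass. Their median log2 change was 0.10, against -0.0033 over all genes. All 3 that rose encode cytokine receptors: Cntfr, for ciliary neurotrophic factor, by 0.69 ± 0.07 (SE), Il1r1, for interleukin-1, by 0.65 ± 0.09, and Lifr, for leukemia inhibitory factor, by 0.55 ± 0.09. Lifr did not pass without control 1, 2 or 3, with an adjusted p of up to 0.0905 (limma), and without fibrinogen 2 the list had 5 genes that rose. The chemokine gene Ccl2 had the largest change of the list, 0.81 ± 0.25 (SE), but did not pass (adjusted p = 0.141, limma). Where p was not adjusted, Ccl2, Cebpb, Osmr, Nfkbia, Jak1, Il6st and Tnfrsf1a would also have passed as higher, and 0 genes as lower. No share of all genes is given for unadjusted p, so nothing is read from that count.

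**Figure D4:**
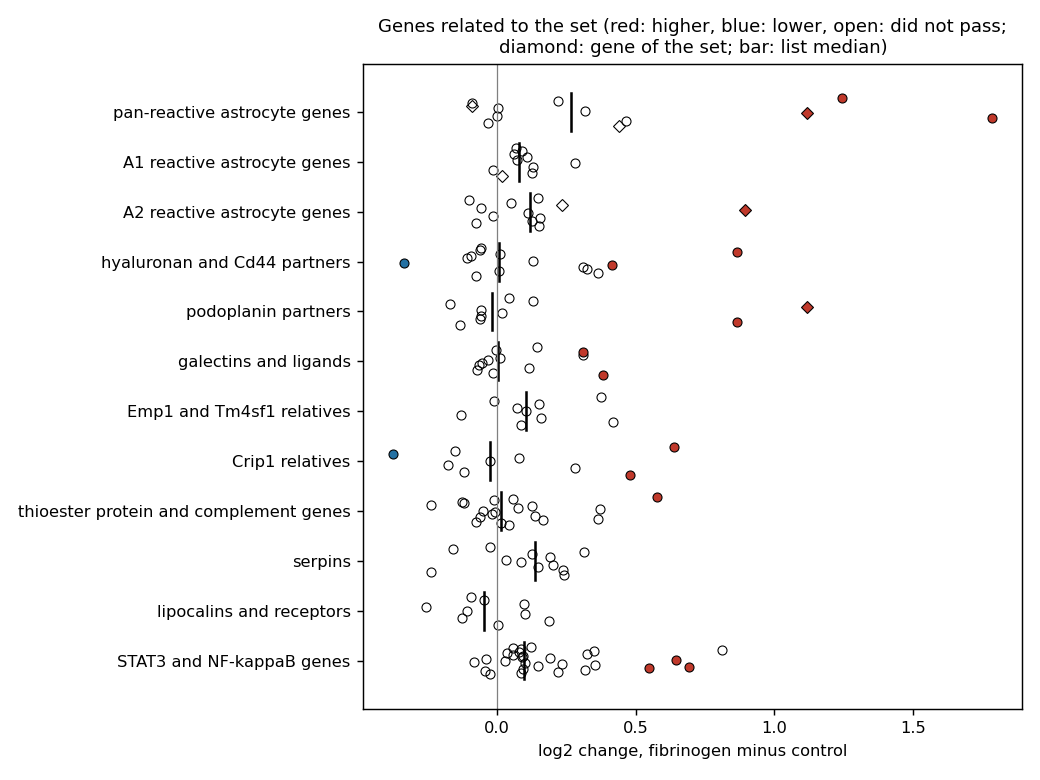
Log2 change, fibrinogen minus control, of every measured gene in the lists related to the set; red and blue mark genes that rose and fell, diamonds genes of the set, and bars the list medians. Hspb1, Gfap, Cd44, Emp1, Ezr and Ccl2, which did not pass, are among the genes that stand apart from list medians between -0.05 and 0.27.

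The genes whose values over the 6 arrays lay nearest to those of each riser, by the root mean square difference after centring, came from other families. For Cd44 they were Eepd1, Myo16, an unconventional myosin, and Gpd1, an enzyme of glycerol phosphate metabolism, at 0.0515, 0.0576 and 0.119. For Pdpn they were Ndrg2, Gpd1 and Faim2, an inhibitor of Fas-driven death, at 0.107, 0.121 and 0.127. For Lgals3 they were the adhesion gene Igsf11, the homeobox gene Dbx2 and Ermn, a cytoskeletal gene of oligodendrocytes, at 0.0511, 0.109 and 0.120. For Emp1 they were Socs2, a feedback inhibitor of cytokine receptors, Pmepa1, which dampens TGF-beta signals, and Faim2, at 0.0798, 0.0799 and 0.0830. For Crip1 they were Dbx2, Lxn, an inhibitor of carboxypeptidases, and Eepd1, at 0.0966, 0.105 and 0.118. The distance includes the difference between the groups, so genes with a log2 change of like size come out nearest. Shared regulation was not tested.

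The cells carried the markers of OPCs, and several other cell types also express genes of the set. All 7 measured OPC markers lay above background, and 5 of them fell, with a summed log2 level of 68.0 to 69.1 on fibrinogen arrays and 71.3 to 71.5 on control arrays. Of 9 astrocyte markers 8 lay above background and 3 rose. Their summed log2 level was 73.6 to 74.9 on fibrinogen arrays and 70.2 to 71.3 on control arrays. The 3 that rose were Gfap, Ndrg2 and Slc1a2, by 1.24, 0.96 and 0.65. The others did not pass: Fgfr3, Slc1a3 and Aldoc changed by 0.30, 0.23 and 0.21, and Gjb6, Aqp4 and Gja1 by 0.08, 0.01 and -0.04. The sum was thus higher on the fibrinogen arrays, as the 5 genes were, but not every marker rose. Among the fibrinogen arrays the sum was lowest on fibrinogen 2, where Cd44, Lgals3 and Crip1 were highest and Pdpn and Emp1 lowest. In bulk RNA, more cells of a type and more RNA per cell cannot be told apart, and the part of astrocytes in the rises was not tested. Of 15 microglia and macrophage markers, which matter for Lgals3 and Cd44, 5 lay above background and 0 passed in limma (0 higher and 1 lower where p was not adjusted), and their sum was 78.1 to 79.5 on fibrinogen arrays and 79.0 to 80.0 on control arrays. The pan-leukocyte marker Ptprc and the integrin gene Itgam lay below background in both groups. The 5 markers above it were Cd68, Tmem119, C1qb, Cx3cr1 and C1qc. Cd68 had the highest mean log2 level, 6.95 on fibrinogen arrays and 7.06 on control arrays. Of 9 pericyte and fibroblast markers, which matter for Pdpn, 5 lay above background and 0 passed (0 higher and 1 lower unadjusted), with sums of 51.0 to 52.2 on fibrinogen arrays and 52.0 to 52.6 on control arrays. Of 7 endothelial markers 3 lay above background and 0 passed (0 in either direction unadjusted), with sums of 35.3 on each fibrinogen array and 35.0 to 35.4 on control arrays. Of 8 oligodendrocyte markers 1 rose and 1 fell, of 11 neuron markers 0 rose and 1 fell, and of 3 ependymal markers 0 passed (0 also where p was not adjusted), with sums on fibrinogen arrays of 63.0 to 63.6, 70.5 to 72.4 and 17.5 to 17.8, and on control arrays of 62.0 to 62.5, 70.2 to 71.0 and 17.0 to 17.6, in that order of cell types. The neuron marker that fell, Gad2, had a mean log2 level below background, 4.77 on fibrinogen arrays and 5.35 on control arrays.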

How the data were processed

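Gene expression was measured in 6 samples, 3 per group, with groups taken from the sample titles. The authors' deposited table holds log2 levels, with a row for each probe set and a column for each array. The submitters' processing notes list RMA and limma, with no version or role, so these deposited log2 values were taken to be RMA output. The scale was inferred from the values, and centring is not stated. RMA can compress differences of dim genes. Of 26312 probe sets, 1206 were blank on every array. Of the 25106 others, 14700 had 1 gene symbol, 275 several and 10131 none, and genes were named from probe sets with 1 symbol alone. Symbols were matched by Entrez ID to RefSeq (GRCr8) for 14672, with 0 changed. The highest-mean probe set was kept for the 480 genes with several.

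The comparison used limma 3.58.1 under R 4.3.3 (functions lmFit and eBayes, two-sided, no covariates) as fibrinogen minus control, at a Benjamini-Hochberg adjusted p under 0.05 over all 13949 genes. No label states whether the replicates were separate cultures, so p-values cover the differences among these 6 arrays, and that spread could be technical. An exact permutation test of 3 against 3 cannot give a p under 0.1 and was not run. The SE and the 95% confidence interval are those of the moderated fit, and the SD is over 3 arrays. The number of arrays limits the precision. No 2 arrays shared the same value for more than 3.63% of genes.

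The genes of the set and the 20 lists were chosen with earlier results of these data known. Genes named outside the set were up to 4 per list that passed, by size of change, or 2 if none passed. The 3 nearest to each gene that rose, and Hspb1, Gfap and Vim, were also named. Rdx, Msn, Ptprc and Itgam were added after their values were seen. So were the other microglia, astrocyte and neuron markers named singly, and the other genes named as passing only without adjustment of p. The procedure was run on simulated data in which each gene was drawn independently and 200 genes were changed. Those data had no correlation between genes and no array set apart, so nothing is concluded here from that run. Alternatives were median centring, filters at the 30th percentile and at the receptor percentile, other probe set rules, all probe sets, a variance trend, array weights, the replicate number as a block, and leaving out each array. Promoter windows came from RefSeq.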

Additional observations from a re-analysis of the deposited data

How the results depend on the processing

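Under each of the 15 alternatives, 5 genes of the set rose and 0 fell. Of 127 changes of single genes of the set recomputed under the alternatives, 125 kept their direction and their side of the threshold. Many of these could not change direction. Each gene had 1 probe set, so the probe set rules left its values as they were. The filters, the variance trend and the block also left the log2 change as it was, and only the adjusted p could move. Direction was open only under median centring, array weights and the fits that left out 1 array. The change of C3 ran from -0.043 to 0.087 with 1 array left out, and it turned to -0.043 without fibrinogen 1 and to -0.0017 without control 3, neither past the threshold. The cause was not tested. Filters on dim genes gave no value for Tm4sf1, Serpina3n, Lcn2 and C3, since all 4 lay under them. Over all genes, array weights gave 383 genes higher and 276 lower, and leaving out 1 array gave 96 to 263 higher and 55 to 173 lower. The fits that leave out an array have 5 samples in place of 6. Of 360 recomputed list counts, 42 differed by more than 1.5 times, mostly where a list held 1 or 2 calls.

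With the replicate number as a block, 195 genes were higher and 120 lower, and 5 and 0 in the set. Same-numbered arrays were correlated in their deviations from the group means at 0.028, 0.022 and 0.011 across genes, so the numbers were not taken to pair the samples, although every array correlated best with its own number. Levels near background limit what can be seen of 4 of the 9 measured genes.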
